A study of Homo sapiens with 6 samples.

Results

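Cytosolic and mitochondrial chaperones were followed in OV2008 cells carrying a miR-328-3p mimic, a synthetic copy of that microRNA, with cells given a negative control microRNA as the comparison. The list names 53 genes of the HSP90, HSP70, J protein, small heat shock protein, BAG, CCT, mitochondrial and heat shock factor classes. A gene was measured where an array probe set carried its symbol and no other, and the probe set with the highest mean over the 6 arrays stood for it, which gave 47 of the 53 among 18836 genes tested. HSPA8, HSPA1B, CDC37 and TCP1 were covered here only by probe sets that carry several symbols, AHSA1 and HSF2 had no annotated probe set, and none of these 6 was analysed. All 47 measured members were above the filter on low signal.

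Chaperones bind unfolded or partly folded proteins and release them in cycles driven by ATP. HSP70 takes clients delivered by J proteins, nucleotide exchange factors such as the BAG proteins and the HSP110 relatives reset it, and HSP90 with its cochaperones takes over late folding intermediates, kinases and steroid receptors among them. The CCT complex is a barrel that folds actin and tubulin, and small heat shock proteins hold unfolded proteins without ATP. Heat shock factor HSF1 drives many of these genes under protein stress, and tumour cells are known for high basal chaperone levels.

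Both groups were the established human line OV2008, grown alike in medium with serum, and RNA was taken 3 days after transfection. One group of 3 samples received the miR-328-3p mimic and the other group of 3 the negative control microRNA. The line is labelled ovarian cancer, but it has been reported elsewhere to be of cervical origin. Separate cultures are not stated in the labels, so p-values here reflect the spread among 6 arrays that may differ for technical reasons alone, and no untransfected cells were analysed here. The 22-base mature strand that the mimic stands for is shown because every comparison turns on it, as RefSeq gives it (GRCh38.p14, chr16:67202327-67202348, minus strand), with the seed, bases 2 to 8, in capitals.
miR-328-3p: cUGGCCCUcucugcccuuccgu

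Each array gave 1 value per probe set on a scale taken as log2, with array medians from 4.14 to 4.17 in the mimic group and from 4.10 to 4.14 in the control group. Correlations across probe sets were 0.9953 to 0.9967 within groups and 0.9925 to 0.9946 between them. All 5 epithelial markers (EPCAM, KRT8, KRT18, KRT19 and CDH1) lay above the array median on every array. So did the measured 3 of 5 squamous markers, at very different levels. KRT5 did so at 17.0 in both groups, SFN at 14.75 in the mimic arrays and 13.90 in the control arrays, and KRT14 at only 5.45 and 5.14. Of 6 Müllerian and ovarian carcinoma markers 2 did so, FOLR1 at 5.69 in the mimic arrays and 5.70 in the control arrays and PAX8 at 4.38 in the mimic arrays and 4.33 in the control arrays, whereas WT1, MUC16, SOX17 and MSLN did not. None of 4 measured leukocyte markers, 1 of 5 fibroblast markers (COL1A1) and 1 of 5 endothelial markers (CDH5, at 4.80 in the mimic arrays and 5.48 in the control arrays) did. The log2 of the summed epithelial markers was 16.03 to 16.14 in the mimic arrays and 15.84 to 15.85 in the control arrays, with 4 of the 5 genes rising, and that of the squamous markers was 17.22 to 17.33 in the mimic arrays and 17.15 to 17.25 in the control arrays, with SFN rising. The part of these shifts in the chaperone results was not tested.

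More chaperone genes rose than fell. In the mimic arrays 12 of the 47 members rose, 2 fell and 33 did not pass limma's test at an adjusted p of 0.05, taken over all 50646 probe sets tested. The rises were those of HSPB8, HSPA13, HSPA1A, DNAJC2, PTGES3, HSPH1, HSPA9, HSPA14, HSPB1, HSP90AA1, HSP90AB1 and STIP1, and the falls those of the chaperonin subunits CCT3 and CCT7. Against a background of 7.21% of all genes rising and 10.8% falling, or 18.0% called in either direction, the members stood at 25.5% rising and 4.26% falling. The members were chosen with earlier results of these data known, so their shares are a description and not a test. Their median difference, mimic minus control, was 0.10 on the log2 scale, beside 0.01 for all genes tested. With arrays centred on their medians these stood at 0.06 for the members and -0.03 for all genes. Of the 47 differences 34 were above 0, and 9946 of 18836 over all genes. Taken array by array, the median deviation of the members from their own mean over the 6 arrays was 0.04 to 0.07 in the mimic group and -0.07 to -0.05 in the control group. The groups did not overlap for 32 of the 47, or 68.1%, beside 41.6% of all genes. The number that rose was 7 without mimic array 1, without mimic array 2 or without control array 3, and both falls passed in every one of those fits. The share of all genes that rose was 4.98%, 4.42% and 4.80% in these fits, in that order. In bulk RNA, a change in RNA per cell cannot be told apart from a change in which cells are present.

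**Figure D1:**
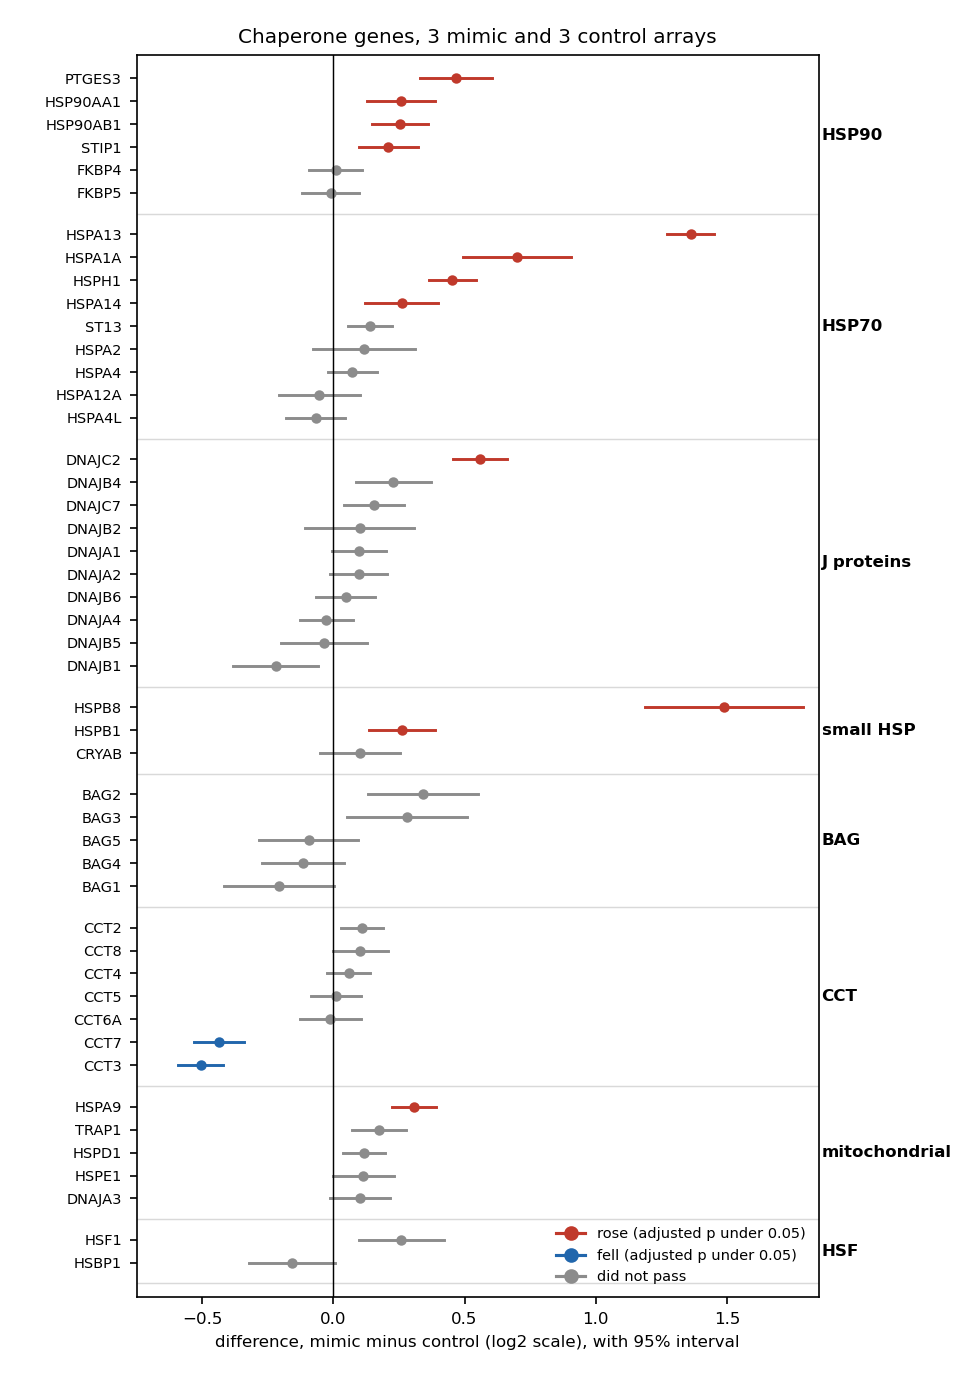
Difference between 3 mimic and 3 control arrays (mimic minus control, log2 scale, horizontal axis) for the 47 measured chaperone genes, in blocks by class, with points for the fitted value and lines for its 95% interval. Red genes rose, blue genes fell and grey genes did not pass; HSPB8 and HSPA13 lie farthest to the right, above 1, and CCT3 and CCT7 farthest to the left.

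Small heat shock proteins gave the largest difference of any member. HSPB8, which works with BAG3 in the selective autophagy of misfolded proteins, had values of 6.83, 6.78 and 6.58 in the mimic arrays, against 5.49, 5.13 and 5.10 in the control arrays. Every mimic array lay more than 1 log2 unit above every control array, and the fitted difference was 1.49 ± 0.126 SE, or 2.8-fold higher on this scale (adjusted p = 0.000943, 95% interval 1.19 to 1.79). HSPB1, the abundant HSP27 chaperone that also binds actin, had values of 12.38, 12.36 and 12.22 in the mimic arrays, against 12.09, 12.05 and 12.04 in the control arrays. Its groups did not overlap, with mimic array 3 nearest to the controls. The difference was 0.26 ± 0.0524 SE (adjusted p = 0.0242), and it passed without mimic array 3 (0.0135) and without control array 1 (0.0484) but not without mimic arrays 1 and 2 (0.081 and 0.0971) or control arrays 2 and 3 (0.0746 and 0.0923). CRYAB, the lens and muscle chaperone alpha-B crystallin, did not pass, at 0.10, and its means of 3.86 in the mimic arrays and 3.76 in the control arrays lay below the array medians.

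Of 9 measured HSP70 class genes, 4 rose, none fell and 5 did not pass, beside 7.21% of all genes rising and 10.8% falling, with a median difference of 0.14. HSPA13, a membrane-associated HSP70 relative of the secretory pathway that lacks the usual substrate-binding domain, had values of 11.59, 11.62 and 11.61 in the mimic arrays, against 10.22, 10.27 and 10.24 in the control arrays. The arrays of each group lay within 0.1 of one another, and the gap between groups was 1.36 ± 0.0379 SE, or 2.57-fold higher (adjusted p = 4.56e-05). HSPA1A, the classic stress-inducible HSP70, had values of 10.85, 10.80 and 10.90 in the mimic arrays, against 9.97, 10.29 and 10.19 in the control arrays. All mimic arrays were higher than all control arrays, of which control array 1 was the lowest, and the difference was 0.70 ± 0.0855 SE (1.62-fold higher, adjusted p = 0.00356). That value came from a probe set on an alternative haplotype of the region, the other 3 haplotype probe sets of HSPA1A stood at 0.66, 0.68 and 0.70, and because HSPA1B is a near-identical copy the value cannot be given to HSPA1A alone.

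The HSP110 relatives, which exchange nucleotide on HSP70 and hold unfolded proteins, differed in their calls. HSPH1 had values of 13.464, 13.486 and 13.496 in the mimic arrays, against 12.996, 13.021 and 13.067 in the control arrays. It was higher on every mimic array, by 0.45 ± 0.0368 SE (1.37-fold, adjusted p = 0.00084). HSPA4 and HSPA4L, the other HSP110 relatives on the list, did not pass, at 0.07 (95% interval -0.02 to 0.16) and -0.07 (-0.18 to 0.04). The interval of HSPH1 was 0.37 to 0.54, and the differences between these genes were not tested. ST13, the HSP70-interacting protein that stabilises client-bound HSP70, stood just outside the threshold at 0.14 (adjusted p = 0.0527). It passed with the lower 50% of signals left out (0.0328), where 11.0% of all genes rose, but not with arrays centred on their medians (0.218). HSPA2, best known from male germ cells, and the divergent HSPA12A did not pass, at 0.12 (95% interval -0.08 to 0.31) and -0.05 (-0.21 to 0.10).

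HSPA14 and DNAJC2 form the ribosome-associated complex, which meets nascent chains as they leave the ribosome, and both genes rose. DNAJC2, its J protein, had values of 9.53, 9.58 and 9.56 in the mimic arrays, against 9.04, 8.97 and 8.99 in the control arrays. The groups were far apart relative to their spread, with a difference of 0.56 ± 0.0435 SE (1.47-fold higher, adjusted p = 0.000711). HSPA14, its HSP70 partner, had values of 9.39, 9.43 and 9.51 in the mimic arrays, against 9.12, 9.26 and 9.18 in the control arrays, and the difference was 0.26 ± 0.0579 SE (adjusted p = 0.0342). The HSPA14 call was the less stable, since it passed without control array 2 (0.0392) but not without control arrays 1 and 3 (0.0848 and 0.112) or mimic arrays 1, 2 and 3 (0.0625, 0.105 and 0.0921), and it did not pass with quantile normalization (0.053).

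Of the 10 measured members of the J protein class DNAJC2 alone passed, which is 10% rising beside the 7.21% of all genes. The median of the class was 0.10. DNAJB1, the main heat-inducible HSP40 partner of HSP70, was lower without passing, with values of 11.51, 11.30 and 11.42 in the mimic arrays, against 11.66, 11.55 and 11.68 in the control arrays (-0.22, adjusted p = 0.0952). Its relative DNAJB4 stood on the other side without passing, at 0.23 (adjusted p = 0.0588). DNAJB4 passed with quantile normalization (0.037) and with the lower 50% of signals left out (0.04), but not with arrays centred on their medians (0.131). DNAJC7, which binds both HSP70 and HSP90, was also higher without passing, at 0.15 (adjusted p = 0.0956). The class A members DNAJA1 and DNAJA2, general HSP70 partners, stood at 0.10 and 0.10 and DNAJA4 at -0.03. DNAJB2, DNAJB6 and DNAJB5 stood at 0.10, 0.05 and -0.03, and DNAJB6, which suppresses polyglutamine aggregation, had an interval of -0.07 to 0.16.

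Of 6 measured genes of the HSP90 class 4 rose and 2 did not pass, beside 7.21% of all genes rising. The 4 became 2 with arrays centred on their medians, without the mean-variance trend and without mimic array 3 or control array 2, and 1 without mimic array 1, mimic array 2 or control array 3. Across these settings 4.42% to 6.16% of all genes rose. PTGES3, the p23 cochaperone that holds HSP90 in its ATP-bound closed form, had values of 14.43, 14.44 and 14.40 in the mimic arrays, against 14.06, 13.86 and 13.95 in the control arrays. It was higher on every mimic array, by 0.47 ± 0.0578 SE (1.38-fold, adjusted p = 0.0037). The inducible HSP90 gene HSP90AA1 had values of 16.75, 16.76 and 16.74 in the mimic arrays, against 16.59, 16.41 and 16.47 in the control arrays. Its mimic arrays lay close together above more scattered controls, with a difference of 0.26 ± 0.0542 SE (adjusted p = 0.028). The constitutive HSP90 gene HSP90AB1 had values of 15.87, 15.88 and 15.80 in the mimic arrays, against 15.65, 15.57 and 15.56 in the control arrays, a difference of 0.25 ± 0.0445 SE (adjusted p = 0.0143). STIP1, the adaptor HOP that passes clients between HSP70 and HSP90, had values of 13.72, 13.68 and 13.64 in the mimic arrays, against 13.54, 13.42 and 13.44 in the control arrays, a difference of 0.21 ± 0.0472 SE (adjusted p = 0.0361). The small rises of the last 3 genes, between 1.16-fold and 1.20-fold, did not pass in every fit with 1 array left out. Their differences in these fits ran from 0.217 to 0.311 for HSP90AA1, 0.238 to 0.284 for HSP90AB1 and 0.184 to 0.247 for STIP1. Fewer of all genes rose in these fits too. HSP90AA1 passed without control array 1 (0.00946) but not without mimic arrays 1, 2 and 3 (0.0883, 0.106 and 0.071) or control arrays 2 and 3 (0.0645 and 0.105). STIP1 likewise passed without control array 1 (0.023) but not without mimic arrays 1, 2 and 3 (0.119, 0.119 and 0.0648) or control arrays 2 and 3 (0.0992 and 0.13). HSP90AB1 was lost without mimic arrays 1 and 2 (0.0586 and 0.0701) and without control array 3 (0.0673). The immunophilins FKBP4 and FKBP5, cochaperones of steroid receptor complexes, did not pass, at 0.01 (95% interval -0.09 to 0.11) and -0.01 (-0.12 to 0.10). Probes of abundant chaperone genes can also match their processed pseudogenes and close paralogs, which the table does not separate.

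**Figure D2:**
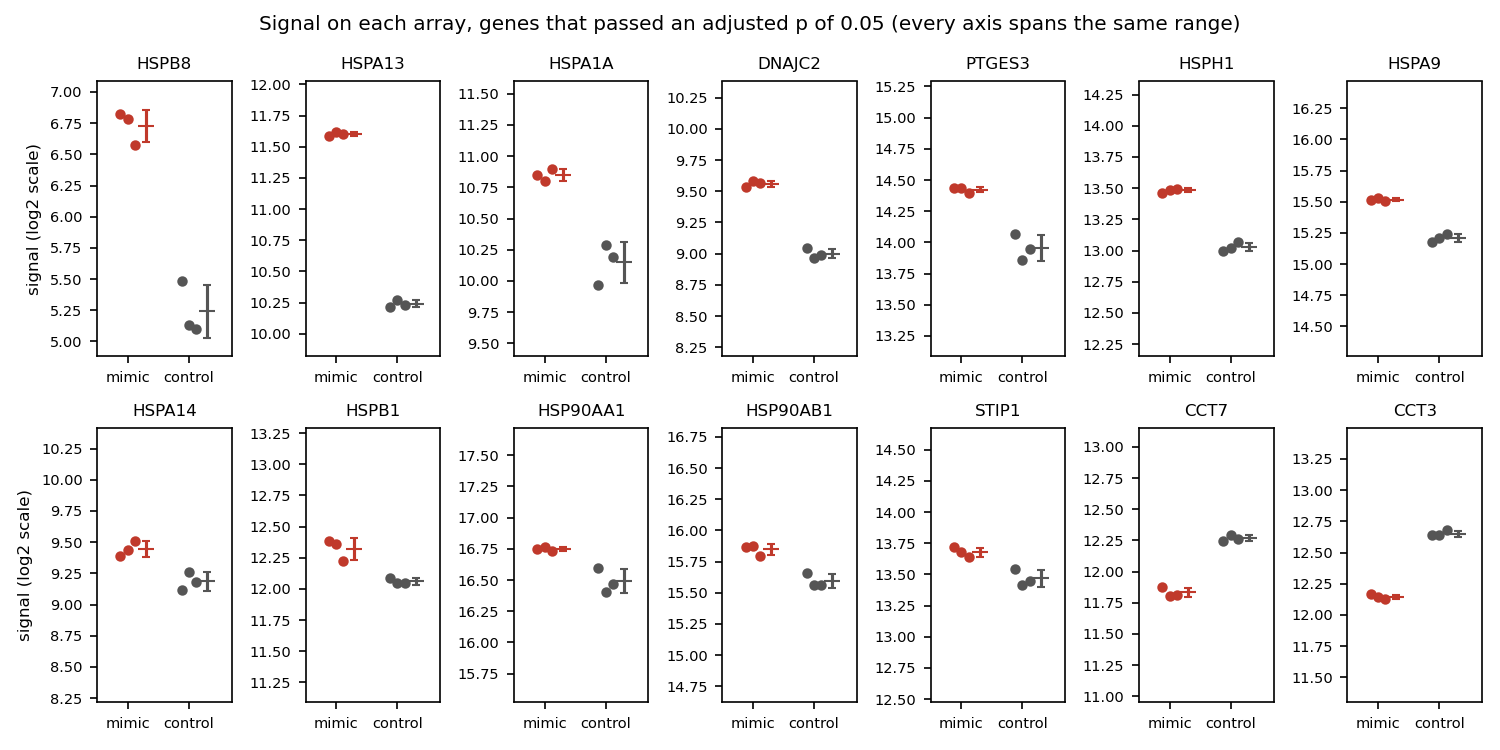
Signal on each array (log2 scale, vertical axis) for the 14 chaperone genes past an adjusted p of 0.05, with 3 mimic arrays left and 3 control arrays right in every panel, and the mean with its SD beside the points. Each panel spans the same range, and no mimic array overlaps the control arrays in any of the 14 panels.

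The falls were those of 2 of 7 measured subunits of CCT, the ring complex in which each subunit holds a fixed place, beside 10.8% of all genes falling. CCT3, the gamma subunit, had values of 12.16, 12.14 and 12.13 in the mimic arrays, against 12.64, 12.64 and 12.68 in the control arrays. All mimic arrays were lower, with a fitted difference of -0.51 ± 0.0355 SE, or 1.42-fold lower (adjusted p = 0.000502). CCT7, the eta subunit, had values of 11.88, 11.81 and 11.82 in the mimic arrays, against 12.25, 12.29 and 12.26 in the control arrays, a difference of -0.44 ± 0.0391 SE (1.35-fold lower, adjusted p = 0.00118). The other 5 measured subunits did not pass and lay on both sides of 0: CCT2 at 0.11 (95% interval 0.03 to 0.19), CCT8 at 0.10 (-0.0014 to 0.21), CCT4 at 0.06 (-0.02 to 0.14), CCT5 at 0.01 (-0.08 to 0.10) and CCT6A at -0.01 (-0.13 to 0.11). All of these intervals lay above those of CCT3, -0.59 to -0.42, and of CCT7, -0.53 to -0.34, although the differences between subunits were not themselves tested. The sign of CCT5 turned with each array centred on its median (-0.03) and with quantile normalization (-0.04), and that of CCT6A turned without mimic array 1 (0.0087) or control array 1 (0.03), so no direction is given for either.

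The 5 mitochondrial members all stood above 0, and 1 passed (20%), beside 7.21% of all genes rising. HSPA9, the mitochondrial HSP70 that pulls proteins through the import channel and serves iron-sulfur cluster assembly, had values of 15.51, 15.53 and 15.51 in the mimic arrays, against 15.18, 15.21 and 15.24 in the control arrays. Arrays within a group differed by less than 0.1, and the difference was 0.31 ± 0.0348 SE (1.24-fold higher, adjusted p = 0.00268). TRAP1, the mitochondrial HSP90, stood just outside the threshold at 0.17 (adjusted p = 0.0511). It passed with the lower 50% of signals left out (0.0313), as did HSPD1 (0.049), a setting in which 11.0% of all genes rose. With arrays centred on their medians neither TRAP1 (0.128) nor HSPD1 (0.31) passed. HSPD1 and HSPE1, which encode the HSP60 chaperonin and its lid and share a bidirectional promoter, stood at 0.12 (adjusted p = 0.0814) and 0.11 (adjusted p = 0.218). DNAJA3, the J protein of HSPA9, stood at 0.10 (adjusted p = 0.265). The groups did not overlap for any of the 5, beside 41.6% of all genes.

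None of the 5 BAG genes passed, beside 18.0% of all genes in either direction. BAG3, the partner of HSPB8, had values of 7.07, 7.23 and 7.09 in the mimic arrays, against 7.03, 6.78 and 6.74 in the control arrays. These do not overlap, as for 41.6% of all genes, and the difference was 0.28 ± 0.0953 SE (adjusted p = 0.126). Without control array 1, its highest control, BAG3 passed at 0.0405. It did not pass without mimic arrays 1, 2 and 3 (0.192, 0.314 and 0.19) or control arrays 2 and 3 (0.276 and 0.309). BAG2, which inhibits the ubiquitin ligase CHIP, had values of 5.864, 5.996 and 6.117 in the mimic arrays, against 5.560, 5.671 and 5.722 in the control arrays, a difference of 0.34 ± 0.0879 SE (adjusted p = 0.0563). It passed with the lower 50% of signals left out (0.0416), where 11.0% of all genes rose, but not with arrays centred on their medians (0.0967). The others were lower without passing, with BAG1, the first known exchange factor of this family, at -0.21, BAG4 at -0.12 and BAG5 at -0.09.

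The regulators of the heat shock response did not pass. HSF1, the main stress-activated factor, had values of 6.31, 6.15 and 6.30 in the mimic arrays, against 5.99, 5.97 and 6.01 in the control arrays, with a difference of 0.26 ± 0.0677 SE (adjusted p = 0.0599). It passed with the lower 50% of signals left out (0.0444), where 11.0% of all genes rose, but not with arrays centred on their medians (0.121). HSBP1, which binds HSF1 trimers and damps their activity, had values of 13.14, 13.16 and 13.23 in the mimic arrays, against 13.24, 13.29 and 13.47 in the control arrays, a difference of -0.16 ± 0.068 SE (adjusted p = 0.219). Neither pair of groups overlapped, as for 41.6% of all genes, HSF1 being higher and HSBP1 lower in the mimic arrays. For HSBP1 the nearest arrays were mimic array 3 at 13.230 and control array 1 at 13.238. Just inside the threshold were STIP1 (adjusted p = 0.0361) and HSPA14 (adjusted p = 0.0342). Outside it, 9 members lay between adjusted p of 0.05 and 0.1. Of these 8, among them TRAP1, ST13, BAG2, DNAJB4 and HSF1, were higher in the mimic arrays and 1, DNAJB1, was lower. The share of all genes in this band was not counted, so the number has no background beside it. With arrays centred on their medians, TRAP1, ST13, DNAJB4 and HSF1 stood above 0.1.

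**Figure D3:**
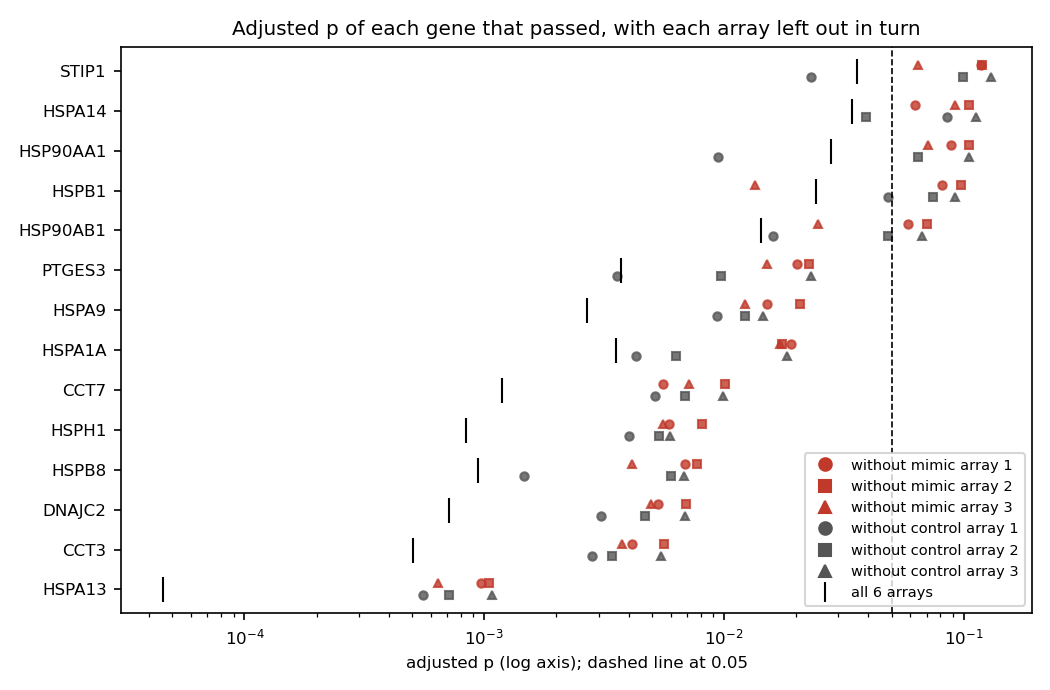
Adjusted p (log axis) of the 14 chaperone genes that passed, with all 6 arrays (black bar) and with each mimic (red) or control (grey) array left out, and a dashed line at 0.05. For 9 genes all 6 symbols lie left of the line, and for STIP1, HSPA14, HSP90AA1, HSPB1 and HSP90AB1 some lie to its right.

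Heat shock elements, the repeats of nGAAn to which HSF trimers bind, were looked for in 300 bases around 1 start per gene, 250 before it and 50 from it on. The letters searched were GAANNTTC and TTCNNGAA, each of which reads the same on both strands, and a longer form in which either of them is followed by NN and a further unit in turn (GAA or TTC), so that 2 short forms overlap in it. RefSeq promoters (GRCh38.p14) were at hand for 46 of the 53 genes, 11 of them with a short form (23.9%) and 3 with the long one (6.52%), beside 13.5% and 0.49% of all 35116 promoters. A short form was found for 4 of 11 members that rose, for 0 of 2 that fell and for 4 of 27 that did not pass. It was also found for 3 of the 6 that were not measured, the largest of these shares. The long form was found for none of those that rose, but for DNAJA1 and DNAJB6, which did not pass, and for HSPA8, which was not measured. Shown are the 4 promoters with a match among genes that rose and the 2 with the long form among genes that did not pass, 5′ to 3′ along the gene, with matches in capitals.
HSPB8, chr12:119178681-119178980, plus strand: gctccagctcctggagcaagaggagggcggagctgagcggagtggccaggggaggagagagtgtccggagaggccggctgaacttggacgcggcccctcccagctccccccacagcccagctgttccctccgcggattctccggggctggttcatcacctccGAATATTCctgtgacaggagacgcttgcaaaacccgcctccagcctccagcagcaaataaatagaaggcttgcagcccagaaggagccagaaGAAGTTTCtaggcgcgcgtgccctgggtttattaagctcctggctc
HSPA1A, chr6:31815293-31815592, plus strand: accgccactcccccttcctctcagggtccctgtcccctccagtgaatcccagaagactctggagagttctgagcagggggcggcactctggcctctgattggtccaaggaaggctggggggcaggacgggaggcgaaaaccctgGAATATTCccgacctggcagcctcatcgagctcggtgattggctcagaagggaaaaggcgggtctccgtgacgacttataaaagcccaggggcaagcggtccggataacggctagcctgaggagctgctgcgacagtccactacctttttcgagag
HSPB1, chr7:76302423-76302722, plus strand: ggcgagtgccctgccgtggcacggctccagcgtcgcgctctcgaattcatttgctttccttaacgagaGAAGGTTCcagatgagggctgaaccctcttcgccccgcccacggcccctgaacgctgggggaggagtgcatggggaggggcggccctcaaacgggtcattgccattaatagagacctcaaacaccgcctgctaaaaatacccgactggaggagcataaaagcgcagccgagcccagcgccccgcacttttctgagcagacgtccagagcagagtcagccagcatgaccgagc
HSPA9, chr5:138575352-138575651, minus strand: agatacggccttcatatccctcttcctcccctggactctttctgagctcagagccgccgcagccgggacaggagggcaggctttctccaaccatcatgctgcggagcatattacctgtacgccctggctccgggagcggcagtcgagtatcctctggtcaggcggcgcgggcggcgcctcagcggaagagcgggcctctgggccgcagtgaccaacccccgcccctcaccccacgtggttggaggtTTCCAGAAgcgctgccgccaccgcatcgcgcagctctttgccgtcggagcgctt
DNAJA1, chr9:33025023-33025322, plus strand: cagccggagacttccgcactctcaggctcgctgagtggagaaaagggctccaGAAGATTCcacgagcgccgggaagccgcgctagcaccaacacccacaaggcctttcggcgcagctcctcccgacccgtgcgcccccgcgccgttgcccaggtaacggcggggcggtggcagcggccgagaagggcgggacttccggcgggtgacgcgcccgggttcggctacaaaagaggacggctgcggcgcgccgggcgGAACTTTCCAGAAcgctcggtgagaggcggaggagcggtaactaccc
DNAJB6, chr7:157336754-157337053, plus strand: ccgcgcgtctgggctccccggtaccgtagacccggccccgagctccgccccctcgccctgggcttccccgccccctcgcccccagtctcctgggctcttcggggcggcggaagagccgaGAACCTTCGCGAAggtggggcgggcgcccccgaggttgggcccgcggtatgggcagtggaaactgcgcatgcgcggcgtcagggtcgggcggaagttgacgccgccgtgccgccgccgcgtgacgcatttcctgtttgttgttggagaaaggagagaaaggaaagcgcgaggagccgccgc

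The first base of the match stood at -88 and 5 from the start in HSPB8, at -106 in HSPA1A, at -182 in HSPB1 and at -4 in HSPA9. The long form began at 4 in DNAJA1 and at -131 in DNAJB6. HSPA13, DNAJC2, PTGES3, HSPH1, HSP90AA1, HSP90AB1 and STIP1, which also rose, had no match in this window. Only 1 start per gene was searched, so a match near another start of these genes could be missed. The promoters of FKBP4, HSPA14, ST13, CRYAB, BAG4, CCT6A and HSF1 were not analysed here. A match of letters is a description and was not tested as a binding site.

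Other folding genes were counted from 5 lists of 111 genes, 95 of them tested, of which 15 rose (15.8%), 13 fell (13.7%) and 67 did not pass, beside 7.21% of all genes rising and 10.8% falling. Of 28 other HSP90 and HSP70 cofactors, 6 rose and 2 fell. The tetratricopeptide protein TTC1 rose by 0.69 ± 0.0547 SE (adjusted p = 0.000761) and CHORDC1, an HSP90 cochaperone, by 0.48 ± 0.079 SE (adjusted p = 0.0108), whereas FKBP8, an immunophilin of the mitochondrial outer membrane, and RUVBL1, an ATPase of the R2TP assembly complex, stood at -0.60 (adjusted p = 0.00324) and -0.33 (adjusted p = 0.00642). Of 16 prefoldin and tubulin cofactor genes, which work alongside CCT, 4 rose and 3 fell. The prefoldin subunits PFDN4 and PFDN5 moved in opposite directions, at 0.42 (adjusted p = 0.0109) and -0.50 (adjusted p = 0.00173). The tubulin cofactor TBCD passed at 0.28 (adjusted p = 0.0163) but not without mimic arrays 1, 2 and 3 (0.0629, 0.05995 and 0.0503) or control array 3 (0.0654), and PDCL3, a phosducin-like protein that binds CCT, passed at -0.37 (adjusted p = 0.0137) but not without mimic array 2 (0.0538) or control array 3 (0.0522).

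Of 12 genes listed as other mitochondrial chaperones and proteases, 3 rose and 2 fell (25% and 16.7%, beside 7.21% and 10.8% of all genes), and 6 of the 12 differences were above 0. The 12 include the small heat shock protein gene HSPB7, which did not pass. Its means of 3.50 in the mimic arrays and 3.46 in the control arrays lay at the filter's floor of 3.47. The matrix protease LONP1 rose by 0.49 ± 0.0748 SE (adjusted p = 0.00811) and GRPEL2, an exchange factor of HSPA9, by 0.38 ± 0.0499 SE (adjusted p = 0.00486). The prohibitins PHB1 and PHB2, which build one ring scaffold in the inner membrane, both fell, with means of 11.04 ± 0.0318 in the mimic arrays and 11.62 ± 0.0612 in the control arrays (SD, n = 3 each) for PHB1 and a difference of -0.59 (adjusted p = 0.000744), and -0.39 (adjusted p = 0.00949) for PHB2. Of 27 other J protein genes, 1 rose and 6 fell, DNAJC4 most at -0.84 ± 0.0519 SE (adjusted p = 0.000334) and DNAJC10, a disulfide reductase of the endoplasmic reticulum, at -0.48 (adjusted p = 0.00255). DNAJB9, a J protein of the same compartment, passed at 0.27 (adjusted p = 0.0404) with all 6 arrays, but in none of the fits on 5 arrays, whose adjusted p ran between 0.0718 (control array 1 left out) and 0.137 (mimic array 2 left out). Of 12 other heat shock and stress-induced genes, 1 rose and none fell, a share of 8.33% that is close to the 7.21% of all genes: SQSTM1, the autophagy receptor p62, at 0.87 ± 0.0566 SE (adjusted p = 0.000394).

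**Figure D4:**
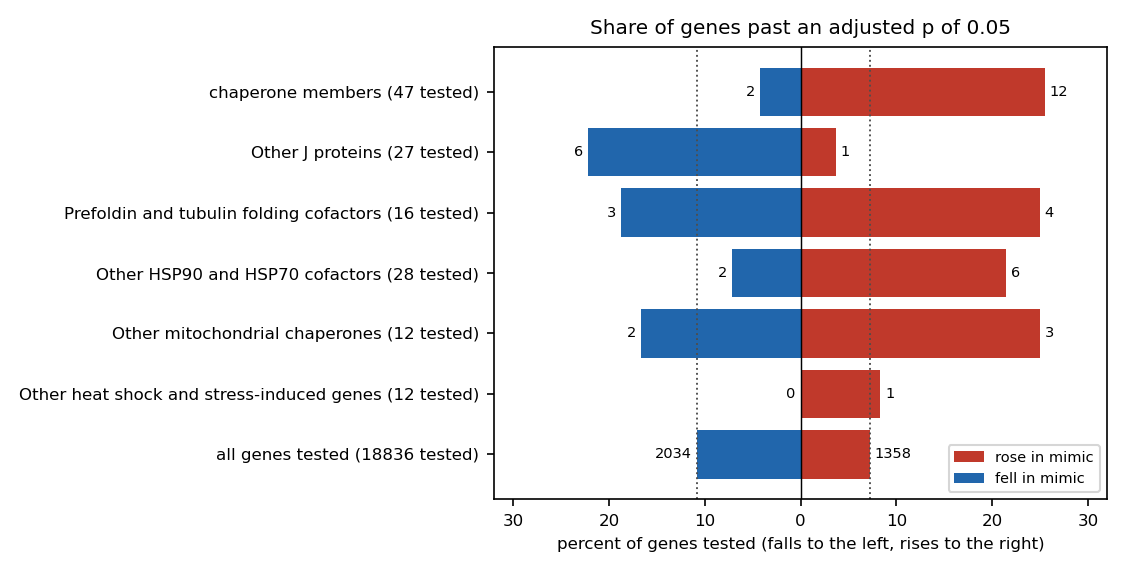
Percent of tested genes that rose (red, to the right) or fell (blue, to the left) in mimic arrays, for the 47 chaperone members, the 5 other folding lists and all 18836 genes tested, with the number of genes beside each bar. Dotted lines mark all genes, at 7.21% rising and 10.8% falling, and the members lie at 25.5% and 4.26%. Members and lists were chosen with earlier results of these data known.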

How the data were processed

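The deposited values, 1 per probe set and array, are taken here as log2. No source states that scale: it was inferred from the range of 1.62 to 19.9, and folds assume it. MAS5 is named without a step or version, per the submitters' processing notes. How probes were combined, and on which genome build, is not stated in what was read here. Groups follow titles and source names, although the descriptions of the mimic samples name the control microRNA.

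Of 70523 probe sets, 2995 controls and then the 25% with the lowest mean were left out, which leaves 50646 tested. Symbols are those of GEO's platform annotation, in which 23781 transcript clusters carry 1 symbol, 1543 several, and 42204 are unnamed here. The mimic and control arrays were compared in R 4.3.3 by limma 3.58.1 (empirical Bayes with a mean-variance trend, two-sided, Benjamini-Hochberg over all probe sets tested, threshold 0.05), and every adjusted p is from this test. It was tested on simulated data. An exact permutation test of 3 against 3 cannot go below 0.1 and was not used. The members and lists were chosen with earlier results of these data known. All members are accounted for; per-array values are given for those past the threshold and, in a class with none, for the 2 with the smallest p, and up to 2 largest rises and falls are named from each of the other 5 lists. DNAJB1 was also given in full after its values were seen. Precision is limited by the 3 arrays in each group. Plots used matplotlib 3.10.9 (Python 3.11.15). Alternatives were other scalings, filters and priors, the mean of a gene's probe sets, a replicate block, and each array left out.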

Additional observations from a re-analysis of the deposited data

How the results depend on the processing

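Both falls, of CCT3 and CCT7, passed under all 13 alternatives, as did the rises of HSPB8, HSPA13, HSPA1A, DNAJC2, HSPH1, HSPA9 and PTGES3. The number of members that rose, 12 in the main comparison, was 9 with arrays centred on their medians (HSP90AA1, HSPA14 and STIP1 were lost), 12 with quantile normalization (HSPA14 lost, DNAJB4 gained), 12 with no filter on low values, 18 with the lower 50% of signals left out (BAG2, DNAJB4, HSF1, HSPD1, ST13 and TRAP1 gained), 8 without the mean-variance trend (HSPB1 lost as well) and 12 with the mean of a gene's probe sets. The shares over all genes moved as well. Of all genes 5.51% rose and 12.6% fell with centred arrays, and 7.30% and 10.3% with quantile normalization. With no filter these were 5.45% and 8.24%, and with the lower 50% left out 11.0% and 16.4%. Without the trend they were 6.16% and 9.35%, and with the mean of probe sets 7.16% and 10.7%. Leaving out 1 array, which leaves 1 fewer sample, gave 7 to 12 rising members, 833 to 1151 rising and 1272 to 1559 falling genes of all, beside 1358 and 2034, and a median of the members from 0.0952 to 0.116. That median was 0.0612 with centred arrays and 0.0909 with quantile normalization, where the median of all genes stood at -0.03 and -0.01; the cause was not tested. With the replicate number of the titles as a block, 9 members rose and 2 fell (HSP90AA1, HSPA14 and STIP1 were lost). Of the 6 HSP90 class genes 2 rose in that fit, and 1038 genes of all rose and 1507 fell. Correlations of deviations from the group means were 0.142, -0.0497 and 0.182 for same-numbered arrays and from -0.226 to 0.115 for the others. The values 0.142 and 0.182 were the highest of all pairs. They do not settle whether the numbers mark pairs. The main comparison left the numbers out, and the block is an alternative to it. No called member changed sign under these alternatives, whereas FKBP4, FKBP5, CCT5 and CCT6A, which did not pass, did under at least 1. Low signal, as for CRYAB, DNAJB2, DNAJB5 and HSPA12A, limits what a difference could show.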
